A study of Rattus norvegicus with 11 samples.

Results

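A set of 9 transcription factors that mark interneurons of the dorsal spinal cord was followed in rat cord collected 1, 3 or 6 months (M) after spinal cord injury (SCI). They were Lbx1, Pax2, Lhx1, Lhx5, Gbx1, Tfap2b, Tlx3, Lmx1b and Prrxl1. Their rows were taken by gene name from the deposited tables of read counts and FPKM, which hold 30443 genes. FPKM is a read density scaled by transcript length and by library depth. The set itself was chosen with earlier results of these data known. Of the 9 names, 8 were in the tables as written, and Prrxl1 was found under Drgx, which RefSeq lists as another name of the same gene. All 9 were among the 19060 genes with an average of at least 0.2 CPM (read counts per 1000000, on library sizes scaled by TMM, the trimmed mean of M values) that were tested, and 7 of 9 reached an FPKM over 1 in a library. Lhx1 and Tfap2b did not.

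The libraries were made from spinal cord of female Sprague-Dawley rats, which the labels give as 12 to 14 weeks old. The study gives this age for the rats as purchased, so they were older at collection. Injured rats received a moderate contusion at a thoracic vertebra and gave 3 libraries at 1 M, 3 at 3 M and 2 at 6 M. Another 6 M library, left out by the authors, is not used here. Control rats had the laminectomy without the contusion and gave 3 libraries, collected at the 6 M time point, so that 1 M and 3 M cords had a shorter time since surgery than Control. Rats of 1 M and 3 M were therefore also younger at collection than Control, and the part of age was not tested. Tissue of 3 rats was pooled for each library, taken as a thin segment at the epicenter, or at the matching level in Control. P-values therefore describe the spread between pools of rats.

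Libraries of injured cord held 21430564 to 49986531 counts and Control libraries 10057646 to 19241259 counts, so a gene at 3 counts stood at 0.0626 to 0.133 CPM after SCI and at 0.162 to 0.336 CPM in Control (counting error only). No processing batch held both injured and Control libraries, so for every contrast with Control the effects of batch and injury cannot be told apart. Of the comparisons between times, 3 M against 1 M could also be made inside 1 batch. The second 6 M library stood apart: the 14 pan-neuronal genes (such as Rbfox3, Snap25 and Tubb3) summed to 905 CPM there, against 2823 CPM in the other 6 M library. Results at 6 M are given with and without it where it changes a call. The cord label was checked on marker genes: the pan-neuronal sum was 8552 to 11195 CPM in Control and the summed CPM of 5 oligodendrocyte genes was 82082 to 87395.

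In the developing dorsal horn, the layered gray matter that receives touch, pain, itch and temperature input, postmitotic neurons become either inhibitory or excitatory. Lbx1 is switched on in the classes of dorsal interneurons that do not depend on roof plate signals. Within them Pax2, Lhx1, Lhx5, Gbx1 and Tfap2b belong to the inhibitory neurons that use GABA and glycine, and Tlx3, Lmx1b and Prrxl1 to the excitatory neurons that use glutamate. These roles are known mainly from mouse. Part of this code stays on in adult neurons, where the factors serve as markers of the same populations. Whole tissue was sequenced, so fewer cells of a type and less RNA per cell cannot be told apart.

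Most of the factors were lower after SCI, 4 at 1 M, 8 at 3 M and 7 at 6 M. At 1 M, those that fell against Control were Lbx1, Lhx5, Gbx1 and Tlx3 (edgeR, adjusted p under 0.05), 4 of 9, where 20.5% of all genes tested fell. At 3 M, 8 of 9 fell, all but Lmx1b, beside 22.9% of genes tested. At 6 M, 7 of 9 fell, all but Tfap2b and Lmx1b, beside 19.8% of genes tested. No factor rose at any of these times, where 26.3%, 30.8% and 27.3% of genes tested rose in the same order, and the count was also 0 at an unadjusted p under 0.05 in edgeR and with DESeq2 and limma. The median log2 fold change of the 9 was -0.90 at 1 M, -1.65 at 3 M and -1.92 at 6 M, while that of all genes tested was 0.06, 0.13 and 0.12. The 3 comparisons share the same Control libraries. By pattern, 4 factors were lower at all 3 times, Pax2, Lhx1 and Prrxl1 at 3 M and 6 M but not 1 M, Tfap2b at 3 M alone and Lmx1b at none. A strict threshold, with the study's cutoffs of an adjusted p under 0.01 and a fold over 2, was applied to the edgeR fit. It was met by 1 factor at 1 M (Gbx1), 7 at 3 M and 6 at 6 M. The shares of genes tested were 4.39%, 8.6% and 7.3% in the same order. The study used DESeq and also asked for an FPKM over 1 in a library, which Lhx1 and Tfap2b did not reach. Lhx1 is among those counted at 3 M and 6 M, and Tfap2b at 3 M. Every injured library lay below every Control library in 7 factors at 1 M, 8 at 3 M and 8 at 6 M, as in 24%, 27.3% and 27.5% of genes tested. In 7 of 9 factors all 8 injured libraries lay below all 3 Control libraries, which held for 19% of genes tested. The exceptions were Pax2 and Lmx1b.

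**Figure D1:**
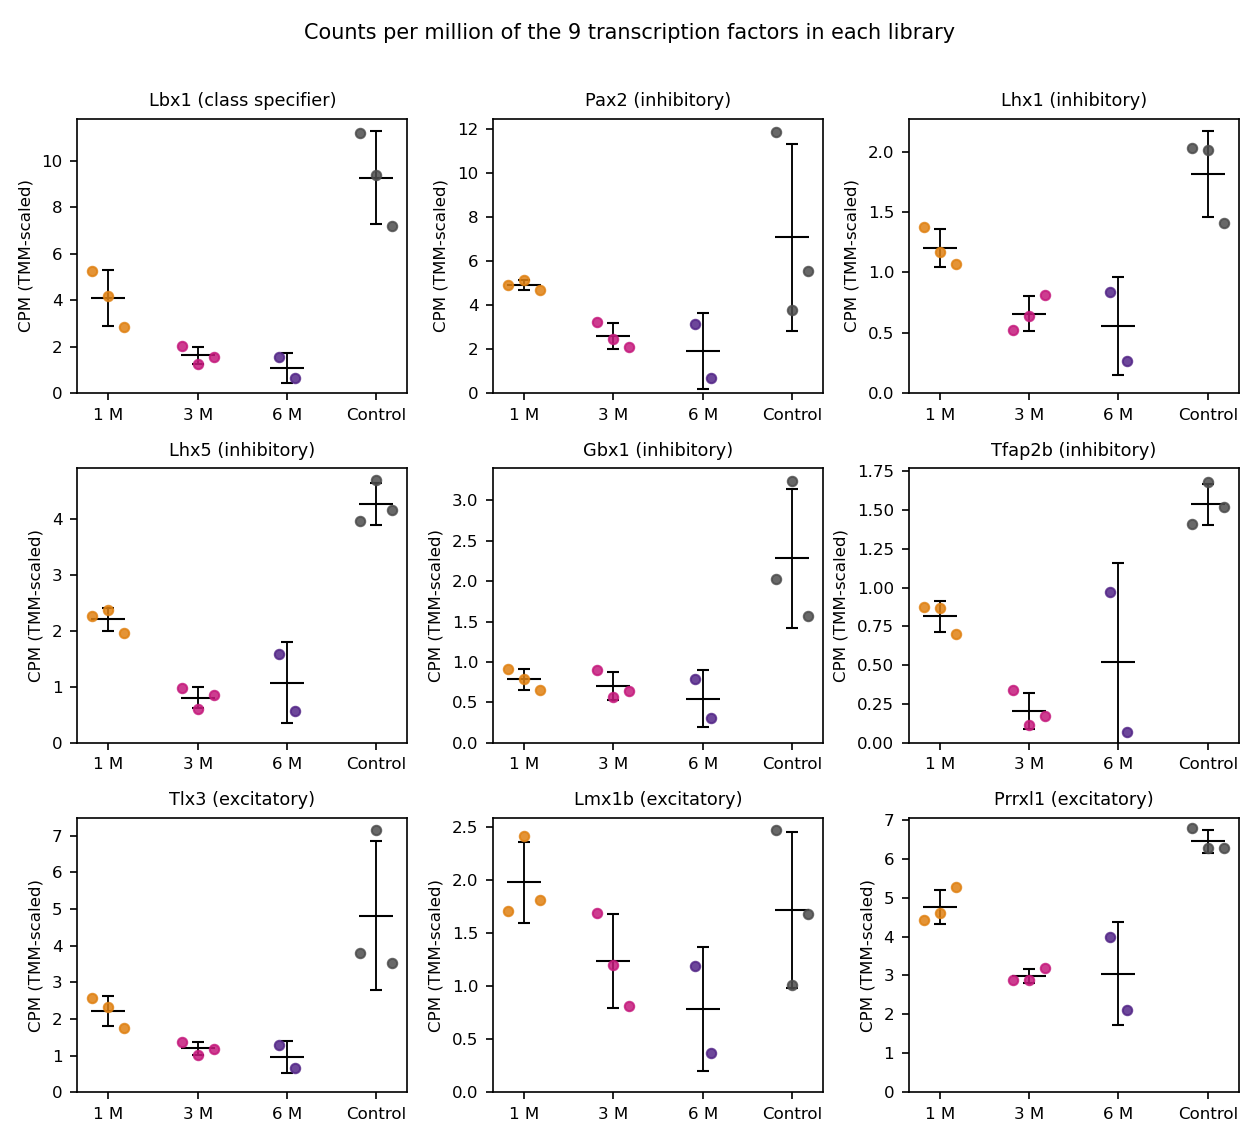
CPM of each of the 9 transcription factors in every library, grouped as 1 M, 3 M, 6 M and Control. Points are libraries, the long dash is the group mean and the bars are ± SD (3 libraries, 2 at 6 M; bars that would pass below 0 end at the axis); the injured libraries lie below Control in all panels but those of Pax2 and Lmx1b, and Control replicate 1 stands high for Pax2 at 11.9 CPM.

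As a description, the 250 bases before the start of each gene were read from RefSeq (build GRCr8, which is not the Rnor6 build of the count tables). The table held 7 of 9, all but Lhx5 and Tfap2b. Besides the 3 printed here, the windows were chr1:253565672-253565921 on the plus strand for Pax2, chr10:69901077-69901326 on the minus strand for Lhx1, chr4:11538152-11538401 on the plus strand for Gbx1 and chr3:37338558-37338807 on the minus strand for Lmx1b. The sequences of Lbx1 (chr1:254034827-254035076 on the minus strand), the factor of both classes, of Tlx3 (chr10:18296552-18296801 on the minus strand), lower at all times, and of Prrxl1 (chr16:7860907-7861156 on the plus strand), with the smallest decline among those that passed at 3 M and 6 M, are shown 5′ to 3′, with matches of CCAAT and TATAAA in capitals.
Lbx1: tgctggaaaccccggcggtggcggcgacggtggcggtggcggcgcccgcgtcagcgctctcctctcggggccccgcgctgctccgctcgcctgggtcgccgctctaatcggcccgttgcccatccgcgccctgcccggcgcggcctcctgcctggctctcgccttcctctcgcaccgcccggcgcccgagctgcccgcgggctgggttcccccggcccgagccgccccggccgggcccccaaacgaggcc
Tlx3: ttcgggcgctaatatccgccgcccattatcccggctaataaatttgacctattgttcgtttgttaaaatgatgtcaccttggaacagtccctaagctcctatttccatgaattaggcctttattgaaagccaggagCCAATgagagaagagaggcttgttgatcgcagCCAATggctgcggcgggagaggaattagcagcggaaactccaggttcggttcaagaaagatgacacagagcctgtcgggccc
Prrxl1: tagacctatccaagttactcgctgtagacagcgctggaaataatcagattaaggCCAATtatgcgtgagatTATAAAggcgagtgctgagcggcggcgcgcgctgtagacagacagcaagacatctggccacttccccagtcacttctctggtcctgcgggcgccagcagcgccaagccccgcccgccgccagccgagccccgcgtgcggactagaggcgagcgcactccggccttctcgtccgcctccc
Lbx1 has neither motif, Tlx3 has CCAAT at 2 places, and Prrxl1 has CCAAT at 1 place and TATAAA at 1 place. Over the 7 windows, CCAAT (or ATTGG on the other strand) was in 2, TATAAA (or TTTATA) in 1, TAATTA, a core bound by many homeodomain factors and the same on both strands, in 0 and GGGCGG (or CCGCCC) in 6. Among all 33469 promoter windows of this length they were in 34.0%, 12.9%, 4.86% and 30.5%. No 2 of the motifs overlap in the printed windows. The G and C content of the 7 was 49.2% to 84.4%, beside a median of 51.2% for all windows, and the observed over expected CpG ratio was 0.707 to 1.01, beside a median of 0.383. GGGCGG was absent from the window of Gbx1, which was lower at all times, and was at 3 places in that of Lmx1b, called at none. A relation of these motifs to the change after SCI was not tested. A match describes letters in a window and not a site that a factor binds.

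Lbx1 (ENSRNOG00000025520), the homeodomain factor shared by the excitatory and inhibitory classes, was lower at every time point. It stood at 5.26, 4.19 and 2.84 CPM in the 1 M libraries, 2.03, 1.28 and 1.58 CPM in those of 3 M, and 1.55 and 0.635 CPM in those of 6 M, against 11.2, 9.40 and 7.20 CPM in Control. Each injured group lay below Control with no overlap, and the 3 M and 6 M libraries also lay below all 1 M libraries. The mean was 4.09 ± 1.21 CPM at 1 M, 1.63 ± 0.378 CPM at 3 M and 1.09 ± 0.644 CPM at 6 M, against 9.26 ± 2.0 CPM in Control (SD, n = 3, and n = 2 at 6 M), and in the fit it was 2.23-fold lower at 1 M, 5.65-fold at 3 M and 8.62-fold at 6 M than in Control. In log2 terms the difference from Control was -1.16 ± 0.31 (1 M), -2.50 ± 0.34 (3 M) and -3.11 ± 0.42 (6 M), with adjusted p-values (edgeR) of 0.0110, 1.25e-04 and 1.90e-04 in the same order. Lbx1 was called against Control at each time whichever library was left out and in each other fit tried, and missed the strict threshold at 1 M only. At 6 M the log2 fold change was -3.93 without 6 M replicate 1 and -2.57 without 6 M replicate 2.

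Among the factors of inhibitory neurons, Lhx5 (ENSRNOG00000001392), a LIM homeodomain factor that with Lhx1 maintains Pax2 and the inhibitory transmitter phenotype in the mouse dorsal horn, was lower at all times. Its level was 2.27, 2.38 and 1.97 CPM in the 1 M libraries, 0.976, 0.600 and 0.852 CPM in those of 3 M, and 1.59 and 0.569 CPM in those of 6 M, against 3.97, 4.70 and 4.17 CPM in Control. The groups at 1 M and 3 M did not overlap each other or Control, and both 6 M libraries lay below all 1 M libraries. Its log2 fold change was -0.95 ± 0.30 (1 M), -2.39 ± 0.34 (3 M) and -2.01 ± 0.38 (6 M), with edgeR adjusted p-values of 0.0243, 1.50e-04 and 0.00135 in the same order. The call at 1 M was lost without Control replicate 3, at an adjusted p of 0.0575, and with 1 batch per group, at 0.122. At 6 M the log2 fold change was -2.98 and -1.42 without replicate 1 and replicate 2 of that time.

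Lhx1 (ENSRNOG00000002812), the partner of Lhx5, stood at 1.38, 1.17 and 1.07 CPM in the 1 M libraries, 0.526, 0.638 and 0.809 CPM in those of 3 M, and 0.840 and 0.268 CPM in those of 6 M, against 2.03, 2.01 and 1.41 CPM in Control. All injured libraries were below all Control libraries, although 1 M libraries and Control were close, with 1.38 CPM in the highest of the 1 M libraries and 1.41 CPM in the lowest of Control. Fold changes against Control were -0.55 ± 0.35 (1 M), -1.44 ± 0.38 (3 M) and -1.73 ± 0.44 (6 M) on the log2 scale, with edgeR adjusted p-values of 0.217, 0.00744 and 0.00750 in the same order, so that Lhx1 was lower at 3 M and 6 M only. Without 6 M replicate 2 the difference at 6 M was -1.08 on the log2 scale and its call was lost (edgeR, adjusted p = 0.0672), and without 6 M replicate 1 it was -2.80.

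Pax2 (ENSRNOG00000014253), a paired box factor and the usual nuclear marker of inhibitory neurons in the dorsal horn, had the widest spread in Control. It stood at 4.92, 5.13 and 4.68 CPM in the 1 M libraries, 3.23, 2.48 and 2.09 CPM in those of 3 M, and 3.14 and 0.702 CPM in those of 6 M, against 11.9, 3.80 and 5.57 CPM in Control. The 1 M libraries lay inside the Control range, and those of 3 M and 6 M below it. The log2 fold change was -0.53 ± 0.46 (1 M), -1.45 ± 0.48 (3 M) and -1.92 ± 0.57 (6 M), with edgeR adjusted p-values of 0.366, 0.0242 and 0.0163 in the same order. These calls rested on few libraries: at 3 M the adjusted p was 0.132 without Control replicate 1 (log2 fold change -0.87), 0.0676 without 3 M replicate 2 and 0.0730 without 3 M replicate 3, and at 6 M it was 0.0542 without Control replicate 1 and 0.109 without 6 M replicate 2 (log2 fold change -1.18; -3.42 without 6 M replicate 1). They were lost with limma too, at adjusted p-values of 0.112 on log2(FPKM + 1) and 0.168 on log2(FPKM + 0.1) at 3 M, and 0.0736 and 0.0603 at 6 M, and the 6 M call was also lost in the edgeR fit of the compared groups only (adjusted p = 0.0594). In whole cord Pax2 is also made outside the dorsal horn, in ventral inhibitory neurons. Since the whole segment was sequenced, dorsal and ventral RNA cannot be told apart for any of the factors.

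Gbx1 (ENSRNOG00000013369), a homeodomain factor of a subset of inhibitory dorsal neurons in mouse, was already lower at 1 M. Its values were 0.918, 0.793 and 0.657 CPM in the 1 M libraries, 0.901, 0.563 and 0.639 CPM in those of 3 M, and 0.795 and 0.301 CPM in those of 6 M, against 2.03, 3.24 and 1.57 CPM in Control. The injured groups overlapped one another and lay below Control. On the log2 scale its change was -1.47 ± 0.38 (1 M), -1.65 ± 0.39 (3 M) and -2.05 ± 0.46 (6 M), with edgeR adjusted p-values of 0.00856, 0.00420 and 0.00396 in the same order, and its calls against Control held whichever library was left out, with -2.95 at 6 M without 6 M replicate 1 and -1.47 without 6 M replicate 2.

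Tfap2b (ENSRNOG00000011823), an AP-2 family factor of inhibitory dorsal neurons in mouse, had the lowest FPKM of the 9. It stood at 0.876, 0.868 and 0.699 CPM in the 1 M libraries, 0.338, 0.113 and 0.170 CPM in those of 3 M, and 0.972 and 0.0669 CPM in those of 6 M, against 1.41, 1.68 and 1.52 CPM in Control. In raw reads these were 3 to 9 counts in a library at 3 M, and 22 and 2 counts at 6 M, against 15 to 28 counts in Control, so the depth limits this gene. Against Control it changed by -0.90 ± 0.56 (1 M), -2.85 ± 0.67 (3 M) and -1.64 ± 0.68 (6 M), with edgeR adjusted p-values of 0.210, 0.00409 and 0.0691 in the same order, and only 3 M passed. At 6 M the 2 libraries differed by a wide margin, and without 6 M replicate 1 the log2 fold change was -4.50 and passed (edgeR, adjusted p = 6.43e-04), while without 6 M replicate 2 it was -0.65 (adjusted p = 0.299). At 1 M the call was gained on leaving out either 6 M library, at an adjusted p of 0.0282 without replicate 1 and 0.0405 without replicate 2.

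Of the factors of excitatory neurons, Tlx3 (ENSRNOG00000004976), the homeodomain selector that favours the glutamatergic over the GABAergic fate, was lower at all times. It stood at 2.57, 2.34 and 1.77 CPM in the 1 M libraries, 1.39, 1.01 and 1.19 CPM in those of 3 M, and 1.28 and 0.669 CPM in those of 6 M, against 3.79, 7.16 and 3.52 CPM in Control. Every injured library lay below every Control library, and each 3 M and 6 M library below each 1 M library. Its log2 fold changes were -1.08 ± 0.32 (1 M), -1.98 ± 0.34 (3 M) and -2.30 ± 0.40 (6 M), with edgeR adjusted p-values of 0.0162, 5.46e-04 and 8.54e-04 in the same order. None of these calls was lost on leaving out a library or in another fit, and the strict threshold was missed at 1 M only. At 6 M the log2 fold change was -2.90 without 6 M replicate 1 and -1.88 without 6 M replicate 2.

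Prrxl1 (ENSRNOG00000020045), a paired-type homeodomain factor also known as DRG11, is needed in mouse for sensory axons to reach the dorsal horn and for neurons there to survive, and is made in dorsal root ganglion neurons too. It stood at 4.42, 4.61 and 5.26 CPM in the 1 M libraries, 2.89, 2.89 and 3.19 CPM in those of 3 M, and 3.98 and 2.11 CPM in those of 6 M, against 6.79, 6.26 and 6.28 CPM in Control. The groups at 1 M and 3 M did not overlap each other or Control, with a narrow spread in each. The log2 fold change was -0.44 ± 0.22 (1 M), -1.11 ± 0.22 (3 M) and -1.09 ± 0.25 (6 M), with edgeR adjusted p-values of 0.118, 0.00163 and 0.00474 in the same order. It was the smallest of the declines that passed at 3 M and 6 M. The call at 1 M was gained on leaving out either 6 M library, at an adjusted p of 0.0181 without replicate 1 and 0.0417 without replicate 2, and without 6 M replicate 1 the log2 fold change at 6 M was -1.70, against -0.70 without 6 M replicate 2.

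Lmx1b (ENSRNOG00000017019), a LIM homeodomain factor that works beside Tlx3 in excitatory dorsal neurons and is also the selector of serotonin neurons of the brain stem, was the exception. It stood at 1.71, 2.42 and 1.81 CPM in the 1 M libraries, 1.69, 1.20 and 0.809 CPM in those of 3 M, and 1.19 and 0.368 CPM in those of 6 M, against 2.47, 1.01 and 1.68 CPM in Control. The 1 M libraries lay inside the Control range, and the 3 M and 6 M groups overlapped Control. Differences from Control were 0.18 ± 0.42 (1 M), -0.49 ± 0.44 (3 M) and -1.20 ± 0.52 (6 M) on the log2 scale, with edgeR adjusted p-values of 0.755, 0.369 and 0.0781 in the same order. At 1 M the sign turned without Control replicate 2 (-0.14) or without 1 M replicate 2 (-0.08). At 6 M the gene passed without Control replicate 2 (log2 fold change -1.51, edgeR adjusted p = 0.0407) and without 6 M replicate 1 (-2.31, adjusted p = 0.0125), while without 6 M replicate 2 it stood at -0.54 (adjusted p = 0.448).

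**Figure D2:**
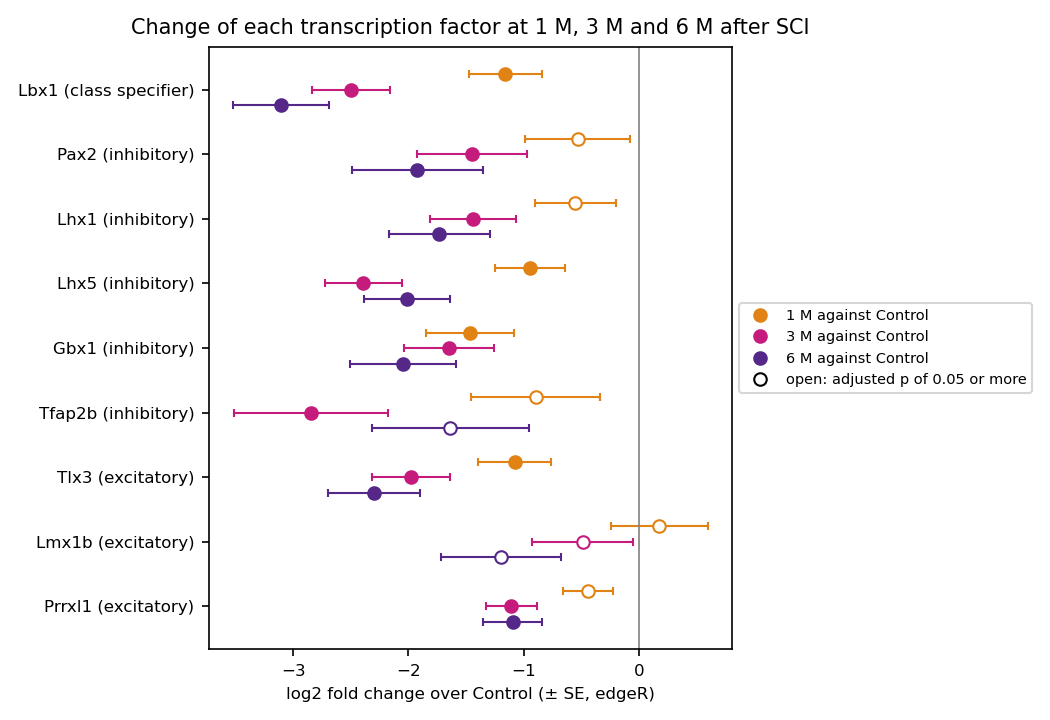
Log2 fold change over Control of the 9 transcription factors at 1, 3 and 6 M, with SE from edgeR. Filled points passed an adjusted p of 0.05 and open points did not; the points of Lbx1 stand at -1.16 (1 M), -2.50 (3 M) and -3.11 (6 M), and those of Lmx1b are open at all times.

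The levels were also compared between times. At 3 M, 2 of 9 factors were lower than at 1 M (edgeR), Lbx1 with a log2 difference of -1.34 ± 0.33 (adjusted p = 0.0389) and Lhx5 with -1.45 ± 0.33 (adjusted p = 0.0290), where 2.81% of genes tested were lower. A further 4, Lhx1, Tfap2b, Tlx3 and Prrxl1, had an unadjusted p under 0.05, and in 8 of 9 factors every 3 M library lay below every 1 M library, as in 16.3% of genes tested. Gbx1 was the exception, at -0.19 ± 0.39 (edgeR, adjusted p = 0.857). No factor was higher at 3 M than at 1 M, as 3.9% of genes tested were, also at an unadjusted p under 0.05. Inside the batch that held all 3 M libraries and 2 of 1 M, 5 of 9 were lower, beside 7.27% of genes tested: Lbx1 at -1.53, Lhx5 at -1.51, Pax2 at -0.94, Tfap2b at -2.04 and Tlx3 at -1.03 (edgeR, adjusted p of 0.00361, 0.00743, 0.0212, 0.0181 and 0.0253 in that order). The calls of Lbx1 and Lhx5 were each lost on leaving out 1 M replicate 1 or 2 or 3 M replicate 1, 2 or 3, with adjusted p-values (edgeR) of 0.0796 to 0.136, and that of Lbx1 also without Control replicate 3 (adjusted p = 0.0534), while 4 factors passed on leaving out either 6 M library, beside 5.19% of genes tested without replicate 1 and 5.34% without replicate 2.

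At 6 M, 1 of 9 was lower than at 1 M, Lbx1 at -1.95 ± 0.40 (edgeR, adjusted p = 0.0151), where 3.64% of genes tested were lower, and 7 of 9 had an unadjusted p under 0.05. None was higher, as 4.86% of genes tested were. Both 6 M libraries lay below all 1 M libraries in 7 of 9 factors, as in 19.3% of genes tested. Without 6 M replicate 2 the difference of Lbx1 was -1.41 and the call was lost (edgeR, adjusted p = 0.164), and without 6 M replicate 1 the count of factors was 8 of 9, beside 5.78% of genes tested. Without Control replicate 2 the count was 2 of 9, beside 4.39% of genes tested. Between 6 M and 3 M the count was 0 of 9 with edgeR, 0 of 9 at an unadjusted p under 0.05 and 0 of 9 with DESeq2 and limma, where 0.0105% of genes tested were lower and 0.021% higher at 6 M. Nor did both 6 M libraries lie below all 3 M libraries in any factor, as they did in 14.2% of genes tested. The differences at 6 M minus 3 M were from -0.71 ± 0.50 for Lmx1b to 1.21 ± 0.78 for Tfap2b. With 2 libraries at 6 M that stood far apart, a further decline after 3 M was not detectable for any factor.

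Per length, in FPKM, the order of the factors differed between injured cord and Control. At 1 M the level order was Lbx1 (2.53 ± 0.733), Pax2 (2.08 ± 0.0567), Tlx3 (1.67 ± 0.0301), Prrxl1 (1.38 ± 0.166) and Lmx1b (1.06 ± 0.173 FPKM), and of these neighbours only Lbx1 and Pax2 overlapped. At 3 M the same 5 lay between 0.697 ± 0.263 for Lmx1b and 1.11 ± 0.364 FPKM for Pax2, with overlap at each step, and at 6 M between 0.460 ± 0.301 for Lmx1b and 0.906 ± 0.961 FPKM for Pax2, where all neighbours overlapped. In Control, Lbx1 was the highest with 6.02 ± 1.11 FPKM, followed by Tlx3 at 4.33 ± 1.49, Pax2 at 2.57 ± 1.63, Prrxl1 at 1.54 ± 0.245 and Lhx5 at 1.53 ± 0.0976 FPKM. All neighbours in the Control order overlapped but Lhx1 (0.591 ± 0.176 FPKM) and Tfap2b (0.202 ± 0.0180 FPKM). Tfap2b was listed at 0.1 FPKM, the value to which the authors set lower ones, in all 3 M libraries. SD are over 3 libraries, and 2 at 6 M.

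Most genes made by the neurons that these factors specify fell as well. Log2 fold changes of such genes are given for 1 M, then 3 M, then 6 M over Control. Of 10 tested genes of inhibitory dorsal neurons, 6 were lower at 1 M, 8 at 3 M and 7 at 6 M, with none higher and median log2 fold changes of -0.78, -1.79 and -1.47. Slc32a1, the vesicular transporter of GABA and glycine, had -1.39 ± 0.35, -2.72 ± 0.37 and -2.52 ± 0.43, and Pvalb, a calcium-binding protein of a subset of them, -2.01 ± 0.39, -3.61 ± 0.42 and -2.95 ± 0.48, and both fell at all times. Of 20 tested genes of excitatory dorsal neurons, 13 were lower and 1 higher at 1 M, 16 lower at 3 M and 15 lower at 6 M, with medians of -1.04, -1.75 and -1.62. Calb2, which encodes calretinin, had -1.86 ± 0.32, -2.86 ± 0.34 and -2.67 ± 0.39, the neuropeptide gene Cck -1.70 ± 0.39, -2.79 ± 0.41 and -2.87 ± 0.48 and the synaptic organizer gene Cbln1 -1.42 ± 0.17, -2.14 ± 0.17 and -2.01 ± 0.20, and all 3 fell at all times. Leaving out the first or the second 6 M library gave 6 M values of -3.81 and -1.86 for Slc32a1, -4.12 and -2.32 for Pvalb, -3.48 and -2.19 for Calb2, and -3.79 and -2.32 for Cck, and all still passed (edgeR). The one that rose at 1 M was Trh (0.74 ± 0.28), a neuropeptide gene, whose call was lost without Control replicate 1 or 3, 1 M replicate 1 or 2, 6 M replicate 1 or any 3 M replicate (edgeR, adjusted p of 0.0625 to 0.368). Counts of this kind have the same backgrounds as those of the 9 factors, and the lists were chosen with results of these data known.

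Other transcription factors of the dorsal cord did not share one direction. Of 23 tested on a list of 30 other dorsal factors, 1 was lower and 6 higher at 1 M, 6 lower and 6 higher at 3 M, and 5 lower and 4 higher at 6 M, with medians of 0.14, 0.11 and 0.10. Mafa fell at all times (-0.91 ± 0.24, -1.29 ± 0.25 and -2.04 ± 0.30). Maf (1.54 ± 0.13, 1.79 ± 0.13 and 1.47 ± 0.14) rose at all times. Maf is also made by macrophages and microglia, and 4 of 4 microglial genes rose at each time, with summed levels of 918 to 1037 CPM at 1 M, 638 to 705 CPM at 3 M and 631 to 717 CPM at 6 M, against 242 to 306 CPM in Control. Their part in the level of Maf was not tested.

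Factors of dorsal progenitors, the dividing cells that precede these neurons in the embryo, were more often called higher than lower. Of 11 tested, 4 were higher and 1 lower at 1 M, and 6 higher and 2 lower at 3 M and at 6 M. Pax3 had 1.93 ± 0.37, 2.1 ± 0.37 and 2.30 ± 0.39, Pax6 1.05 ± 0.17, 1.64 ± 0.17 and 1.71 ± 0.18 and Prdm13 1.99 ± 0.37, 2.22 ± 0.37 and 1.60 ± 0.41, and all 3 rose at all times. Their Control means were 0.591 CPM (Pax3), 8.35 CPM (Pax6) and 0.312 CPM (Prdm13), where 3 counts in a Control library stand at 0.162 to 0.336 CPM. The 6 M call of Prdm13 was lost with limma on log2(FPKM + 1) (adjusted p = 0.0704). Olig3 was lower (-2.04 ± 0.64, -3.99 ± 0.80 and -2.69 ± 0.80), with a Control mean of 1.36 CPM, and its call was lost at 1 M without Control replicate 2 or 1 M replicate 2 (edgeR, adjusted p of 0.0578 and 0.0593) and at 6 M without 6 M replicate 2 (-1.57, adjusted p = 0.0629). Of 21 tested ventral factors, 6 were lower and 2 higher at 1 M, 9 lower and 6 higher at 3 M, and 9 lower and 3 higher at 6 M, with medians of -0.34, 0.28 and -0.06. Lmo4 (0.81 ± 0.14, 1.14 ± 0.14 and 1.21 ± 0.15) was higher at all times, with 0.54 at 1 M without 1 M replicate 1.

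The summed level of the 9 factors was lower in the same libraries as that of genes that all neurons make. It was 20.7 to 24.3 CPM at 1 M, 10.8 to 14.0 CPM at 3 M, and 15.3 and 5.69 CPM at 6 M, against 32.9 to 45.6 CPM in Control. That of the 14 pan-neuronal genes was 4008 to 4859 CPM at 1 M, 1832 to 2220 CPM at 3 M, and 2823 and 905 CPM at 6 M, against 8552 to 11195 CPM in Control. Of these 14 genes, 11 were lower and 1 higher (Map2, 1.19 ± 0.35) at 1 M, and 13 lower and none higher at 3 M and at 6 M, with medians of -1.12, -2.31 and -2.30. The call of Map2 was lost without Control replicate 2 or 3 or 1 M replicate 2 or 3 (edgeR, adjusted p of 0.0551 to 0.110). Motor neuron genes were lower in 3 of 5 at 1 M and in 5 of 5 at 3 M and 6 M. The second 6 M library was the lowest of all 11 in each of the 9 factors, which 11.2% of genes tested shared, and was also the lowest in the pan-neuronal sum.

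**Figure D3:**
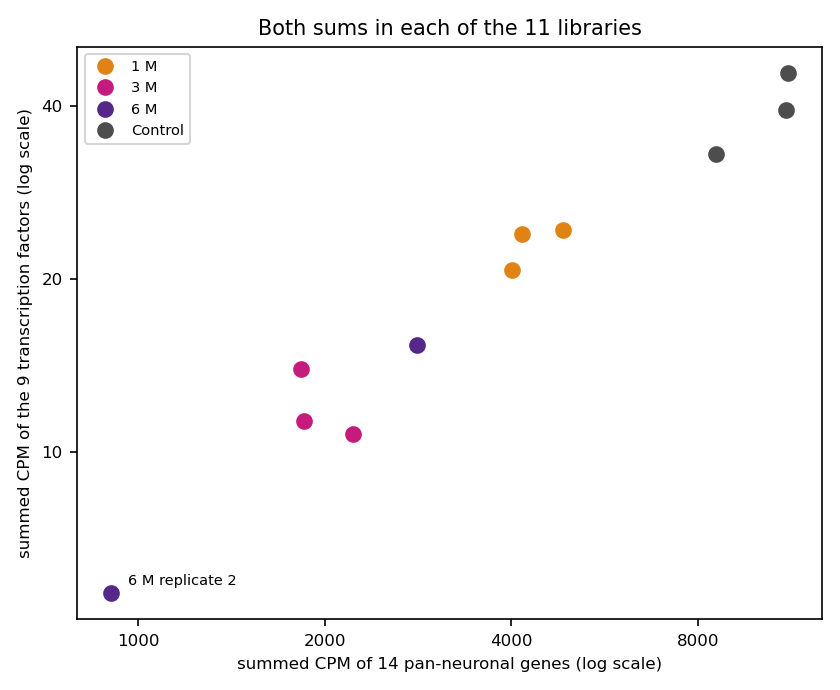
Summed CPM of the 9 transcription factors against summed CPM of 14 pan-neuronal genes, with 1 point for each of the 11 libraries and log scales on both axes. The libraries of 1 M, 3 M, 6 M and Control line up along the diagonal, with 6 M replicate 2 lowest on both sums (5.69 and 905 CPM).

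The genes whose profile was most like the mean profile of the 9 factors included well-known neuronal genes. Over the 11 libraries, and among 16010 other protein-coding genes, the 10 highest Pearson correlations with the mean z-score of the 9 included those of Sgsm1 (0.992), Rasgrf1 (0.991), Iqsec3 (0.991), Disp2 (0.989), Rbfox3 (0.989), Unc5a (0.988), Acan (0.988), LOC100125362 (0.988) and Lynx1 (0.988). Rbfox3 encodes NeuN, the common nuclear marker of neurons, Acan the core protein of perineuronal nets and Unc5a a netrin receptor. In all, 828 genes were above 0.9. Set against the mean profile of the other 8, 6 of the 9 factors were above 0.9, and Pax2 was at 0.885, Gbx1 at 0.859 and Lmx1b at 0.671. The libraries differ in injury, batch and depth, and the correlations carry no test.

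To see which factors fell less or more than neuronal RNA in general, the log2 level of each factor in a library was set against the mean log2 level of the 14 pan-neuronal genes there, as a description. Lmx1b was above its Control mean on this scale by 1.21 at 1 M, 1.58 at 3 M and 1.09 at 6 M, Prrxl1 by 0.52, 0.92 and 1.11, and Lhx1 by 0.41, 0.66 and 0.55. In these 3 factors every injured library lay above every Control library at each time, which on this scale held for 75% of genes tested at 1 M, 93.8% at 3 M and 93.4% at 6 M. Lbx1 was 0.83 below its Control mean at 6 M, with both libraries below Control as in 0.682% of genes tested, and overlapped Control at 1 M and 3 M. Gbx1 was 0.42 below at 1 M, with all libraries below Control as in 1.53% of genes tested, and overlapped it later. At 3 M no factor lay below Control in all libraries, as 0.939% of genes tested did. Pax2, Lhx5, Tfap2b and Tlx3 overlapped Control at all times. The scale depends on how the neuronal genes are averaged: with the summed CPM of the same genes in place of the mean, Lmx1b was higher by 1.5, 1.96 and 1.53 and Lbx1 stood at 0.06 at 1 M, -0.06 at 3 M and -0.39 at 6 M.

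**Figure D4:**
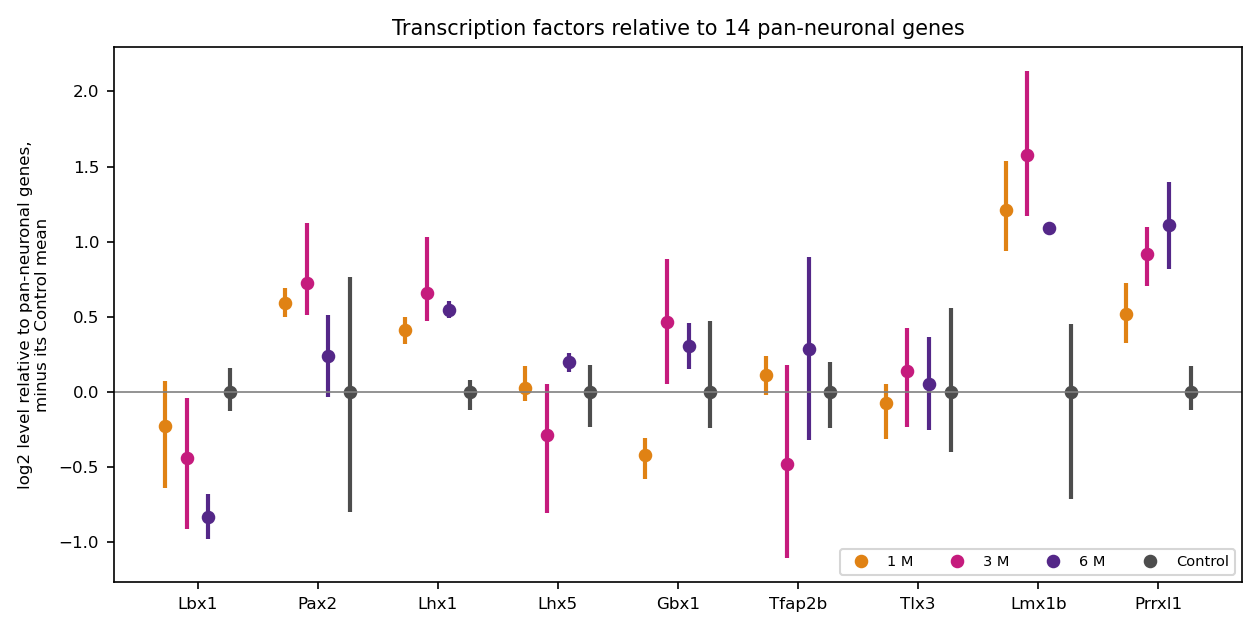
Log2 level of each transcription factor relative to the mean log2 level of 14 pan-neuronal genes in the same library, minus its Control mean. Points are means of 1 M, 3 M, 6 M and Control, and vertical lines span the libraries; Lmx1b, Prrxl1 and Lhx1 stand above Control at all times and Lbx1 below it at 6 M.

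Markers of dorsal root ganglion neurons, which also make Prrxl1 and Tlx3, were followed beside them. Their 11 genes summed to 74.4 to 81.2 CPM at 1 M, 31.8 to 50.5 CPM at 3 M and 27.3 to 46.5 CPM at 6 M, against 31.0 to 42.6 CPM in Control. Of 9 tested, 4 were higher and 1 lower at 1 M, and 2 higher and 2 lower at 3 M and at 6 M. In 2 of the 11 all Control libraries were at 0. Trpa1, an irritant-gated channel of nociceptors, rose at all times (2.18 ± 0.50, 2.72 ± 0.49 and 2.90 ± 0.51 on the log2 scale). Schwann cell genes were higher in 3 of 4 at 3 M and 6 M. The part of root or ganglion tissue in the levels of Prrxl1 and Tlx3 was not tested. The 5 genes of kidney and limb, where Pax2, Lhx1, Lmx1b and Tfap2b also act, summed to 1.02 to 1.09 CPM at 1 M, 1.09 to 1.80 CPM at 3 M and 1.37 to 1.46 CPM at 6 M, against 0.671 to 1.41 CPM in Control.

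Long non-coding RNAs beside the factors were compared with them. LOC102549553, which the study's annotation places beside Lhx5 on the opposite strand, stood at 1.38, 0.906 and 1.19 CPM in the 1 M libraries, 0.638, 0.525 and 0.469 CPM in those of 3 M, and 1.06 and 0.435 CPM in those of 6 M, against 3.26, 5.93 and 4.28 CPM in Control. All injured libraries were below all Control libraries. Its log2 fold change was -1.92 ± 0.33 at 1 M, -3.02 ± 0.36 at 3 M and -2.60 ± 0.40 at 6 M, with edgeR adjusted p-values of 8.06e-04, 5.46e-05 and 4.41e-04, beside -0.95 ± 0.30 (1 M), -2.39 ± 0.34 (3 M) and -2.01 ± 0.38 (6 M) for Lhx5. LOC102549072, listed beside Lbx1, stood at 1.79, 1.17 and 1.36 CPM in the 1 M libraries, 0.863, 0.638 and 1.11 CPM in those of 3 M, and 1.10 and 0.167 CPM in those of 6 M, against 3.00, 2.57 and 3.09 CPM in Control, with -0.99 ± 0.43, -1.74 ± 0.46 and -2.26 ± 0.55 (edgeR, adjusted p of 0.0784, 0.00757 and 0.00602), so that it passed at 3 M and 6 M. Its call at 1 M was gained without 1 M replicate 1 (-1.31, adjusted p = 0.0452), 6 M replicate 1 (-1.09, adjusted p = 0.00705) or 6 M replicate 2 (-0.99, adjusted p = 0.0109). At 6 M the log2 fold change was -4.16 without 6 M replicate 1 and -1.39 without 6 M replicate 2. Its call at 3 M was lost with limma on log2(FPKM + 0.1) (adjusted p = 0.0966). It too lay below Control in all injured libraries.

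Values of the neighbour of Lhx1 depended on the scale. In counts, LOC102553190, next to Lhx1 in RefSeq, had log2 changes of -0.14 ± 0.51, -1.27 ± 0.56 and -1.14 ± 0.62 at 1, 3 and 6 M and passed at none of these times (edgeR, adjusted p of 0.846, 0.0753 and 0.154). It passed at 3 M without 6 M replicate 1 (-1.37, adjusted p = 0.0148) or 6 M replicate 2 (-1.27, adjusted p = 0.0201) and with DESeq2 (adjusted p = 0.0475), and at 6 M without 6 M replicate 1 (-3.01, adjusted p = 0.00595) but not without 6 M replicate 2 (-0.26, adjusted p = 0.722). In FPKM it stood at 1.66 to 7.85 after SCI, against 13.7 to 20.7 in Control, and with limma on log2(FPKM + 1) it was lower at all 3 times (-1.39, -2.22 and -2.19, with adjusted p-values of 0.00466, 3.00e-04 and 9.66e-04). LOC102546482, next to Tlx3, was higher at 1 M with 1.40 ± 0.45 (edgeR, adjusted p = 0.0242), on 13 to 23 counts in a 1 M library and 1 to 6 counts in a Control library. This call was lost without Control replicate 1 or 2 or 1 M replicate 2 (edgeR, adjusted p of 0.0671 to 0.0992). LOC102548668, next to Pax2, had 3 counts over all libraries and was not tested. The strand setting of the counting is not given in the sources used here, so reads of a factor and of a transcript that overlaps it on the other strand cannot be told apart.

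**Figure D5:**
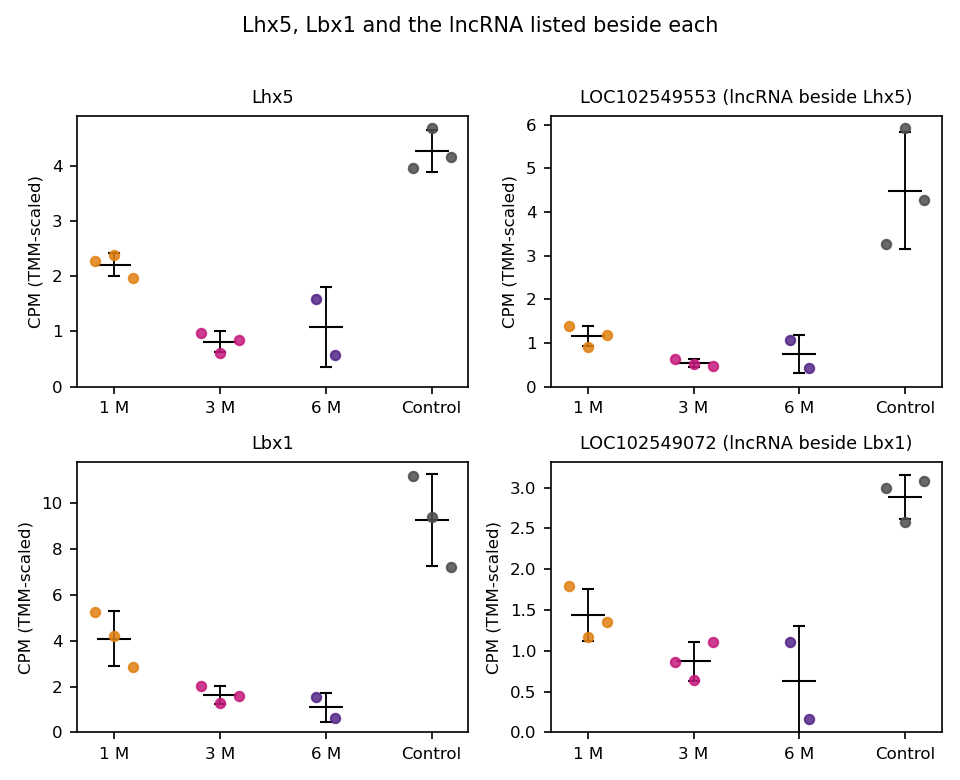
CPM in every library of Lhx5 and Lbx1 (left) and of the long non-coding RNA listed beside each (right), grouped as 1 M, 3 M, 6 M and Control. Points are libraries, the dash is the mean and bars are ± SD (3 libraries, 2 at 6 M); in all 4 panels every injured library lies below every Control library.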

How the data were processed

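RNA-seq was run by the authors on poly-A selected spinal cord RNA from 11 pools of 3 rats each (Illumina paired-end reads). The raw read counts per gene, as deposited, came from reads that the authors aligned to Rnor6 with TopHat2 2.1.0 and counted with HTSeq. The sources used here give neither its version nor its strand setting. The deposited FPKM values came from Cufflinks 2.2.1, and the authors set lower values to 0.1, as 41.8% of the values are. Base calling used CASAVA 1.7 per the labels.

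Counts were fitted in edgeR 4.0.16 (R 4.3.3) with TMM scaling, quasi-likelihood F tests and 1 term for the group (1 M, 3 M, 6 M or Control) over all 11 libraries. Genes with an average of at least 0.2 CPM entered, 19060 in all, and the Benjamini-Hochberg adjustment ran over all of them, with calls at 0.05. SE equals the unsigned log2 fold change over the root of F. The filter differs from that of the study (an FPKM over 1 in a library), which would drop Lhx1 and Tfap2b and is among the alternatives. The other alternatives were other scalings, filterByExpr or no filter, DESeq2 1.42.0, limma 3.58.1 on log2(FPKM + 1) and log2(FPKM + 0.1), fits of the compared groups only, a replicate block, 1 batch per group, batch 2 alone, the total of 1 M replicate 1 divided by 2 (it exceeds that library's number of read pairs), and each library left out in turn. The fit was tested on simulated data.

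The 9 factors and the 15 gene lists were chosen with earlier results of these data known, and no list was tested as a set. All factors are named. Of each list, the genes with the lowest and the highest mean log2 fold change over the 3 times were eligible to be named, with genes needed to describe a factor, the 10 genes most like the mean profile, and the RNAs next to a factor. Some genes that this rule would name are not reported here. Levels relative to neuronal genes are log2(CPM + 0.1) minus the mean over 14 genes. Promoter windows come from RefSeq (GRCr8) and neighbours of Lhx5 and Lbx1 from the annotation of the study.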

Additional observations from a re-analysis of the deposited data

Results flagged for a closer look

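In 2 factors the log2 level differed between injured groups that share the same contrast with Control. For Lbx1 the difference of 3 M minus 1 M was -1.34 ± 0.33 (edgeR, adjusted p = 0.0389), and that of 6 M minus 1 M was -1.95 ± 0.40 (edgeR, adjusted p = 0.0151). All libraries of 3 M and 6 M lay below all of 1 M. For Lhx5 the difference of 3 M minus 1 M was -1.45 ± 0.33 (edgeR, adjusted p = 0.0290), again with no overlap. Inside 1 batch the 3 M minus 1 M differences were -1.53 for Lbx1 and -1.51 for Lhx5. The calls at 3 M depended on which library was left out, and that of Lbx1 at 6 M was lost without 6 M replicate 2 (-1.41, adjusted p = 0.164).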

How the results depend on the processing

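Against Control, 4, 8 and 7 factors were lower at 1, 3 and 6 M, and leaving out 1 library gave 3 to 6, 7 to 8 and 5 to 9. With DESeq2 the counts were 5, 8 and 9, with limma on either FPKM scale 4, 7 and 6, and with the FPKM filter of the study 4, 6 and 6 of the 7 factors it keeps. At an adjusted p under 0.01 and a fold over 2 the count at 1 M was 1. For 3 M against 1 M, where 2 factors were lower, DESeq2 gave 4, limma on log2(FPKM + 1) or log2(FPKM + 0.1) 0, the fit of the compared groups only 5, the replicate block 1, batch 2 alone 5, the stricter threshold 0, and leaving out 1 library 0 to 4. For 6 M against 1 M, where 1 was lower, DESeq2 gave 3, the compared groups only 0, the stricter threshold 0, and leaving out 1 library 0 to 8.

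Signs turned only where the difference was not called. For Pax2 at 1 M the leave-one-out values ran from -0.90 to 0.043, and for Lmx1b at 1 M from -0.14 to 0.49, as for the RNA LOC102553190 at 1 M from -0.39 to 0.013. For 6 M against 3 M, they ran from -1.87 to 0.27 for Pax2, -1.26 to 0.36 for Lhx1, -0.49 to 0.97 for Lhx5, -1.20 to 0.18 for Gbx1, -1.56 to 2.2 for Tfap2b, -0.83 to 0.10 for Tlx3 and -0.49 to 0.41 for Prrxl1, with the ends set by the 2 libraries of 6 M. On log2(FPKM + 1) this difference was 0.0012 for Gbx1 and -0.0072 for Prrxl1, and on log2(FPKM + 0.1) -0.043 for Prrxl1. For Tfap2b at 6 M against 1 M the range was -3.50 to 0.25. The cause was not tested.

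The replicate block changed no call of a factor against Control, but with it those of LOC102546482 (adjusted p = 0.0501) and Trh (0.0702) at 1 M and of Lhx5 at 3 M against 1 M (0.0507) were lost. Replicate numbers did not pair the libraries, since same-numbered deviations correlated at -0.45 to 0.31 over 15 pairs. Scaling by total counts moved the median log2 fold change of all genes by 0.11, 0.12 and 0.13 at 1, 3 and 6 M, and the counts of factors stayed at 4, 8 and 7. On log2(FPKM + 1), 26.5%, 24.7% and 25.5% of all calls were lower, against 43.8%, 42.7% and 42.0% with edgeR. Depth limits Tfap2b most, at 2 to 9 counts in 4 injured libraries.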

Other observations

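Genes of other cell types of the cord did not share one direction (edgeR, adjusted p under 0.05). All 5 oligodendrocyte genes tested were lower at each time. Of 4 astrocyte genes, 3 were higher and 1, Aldh1l1, lower at 1 M, and 3 were higher and none lower at 3 M and at 6 M. Their summed levels were 16005 to 18704 CPM at 1 M, 21733 to 22979 CPM at 3 M and 21211 to 23170 CPM at 6 M. In Control they were 8317 to 8942 CPM. Of 4 genes of meninges and fibroblasts, 2, 4 and 2 were higher at 1, 3 and 6 M, and of 3 endothelial genes 2 were higher at each time. Of 4 Schwann cell genes, 1 was lower at each time (Sox10, also made by oligodendrocytes).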
